A study of Mus musculus with 10 samples.

Results

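The genes of DNA replication and nucleotide synthesis described here are 41 genes taken by symbol, from the loading of the replicative helicase to the making of DNA building blocks. Each gene was read from the probe set annotated to it, or from the one with the highest mean over all arrays where it had several. A probe set was annotated to 40 of the 41, and Mcm7 was not analysed here. All 40 passed the filter on low values and were tested among 13393 genes, out of 19505 with a single symbol. Orc1, Gins1 and Ccne2 lay near background in both GFP groups and passed the filter through the oncogenic Vav1 arrays. Their differences therefore support nothing here. Main counts against GFP are also given over the other 37, while counts between tissues and with arrays left out are over the 40. In all, 4 of the 40 genes were near background in GFP spleen and 3 in GFP lymph node.

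The samples are 10 single-colour arrays of total RNA from C57BL/10 mice with the genotypes WT + Oncogenic Vav1 and WT + GFP. CD4+ T cells had been transduced with oncogenic Vav1 or with GFP, put into immunocompromised mice and studied 6 months after transfer. Vav1 is a guanine nucleotide exchange factor that acts downstream of the T cell receptor, and GFP is a fluorescent protein that served as the control. There were 4 oncogenic Vav1 spleen arrays, 2 GFP spleen arrays, 2 oncogenic Vav1 lymph node arrays and 2 GFP lymph node arrays. They came from 7 animals, of which 3 gave both tissues. The animal ONCO2 gave oncogenic Vav1 spleen replicate 2 and oncogenic Vav1 lymph node replicate 1. The animal ONCO3 gave oncogenic Vav1 spleen replicate 3 and oncogenic Vav1 lymph node replicate 2, and CTL2 gave GFP spleen replicate 1 and GFP lymph node replicate 2. The kind of immunodeficiency of the hosts, their age, and any pooling of animals are not given in the sources used here.

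Before a cell copies its DNA, the origin recognition complex, Cdc6 and Cdt1 load the Mcm helicase onto origins, and Cdc45 and the GINS complex later switch that helicase on. Polymerase alpha with primase starts each strand, polymerase epsilon extends the leading strand, and polymerase delta, held by the Pcna clamp, extends the lagging strand. Most of these genes are transcribed late in G1 and in S phase, many of them under E2F transcription factors. In mouse spleen and lymph nodes, activated lymphocytes and blood cell precursors are among the cells that divide.

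The cell type given in the labels is CD4+ T cells, and some markers of other cells were also high on every array. Cd79a, part of the antigen receptor of B cells, lay between percentiles 95.3 and 99.5 of the probe sets of an array. Lyz2, the lysozyme of myeloid cells, lay between percentiles 98.8 and 99.9. Others were low on some arrays, with percentile 19.8 as the lowest of Mpo, a neutrophil granule enzyme, and 16 as the lowest of the erythroid marker Rhag. Cd4 itself lay between percentiles 76.4 and 93.4. Vav1, the introduced gene, had log2 values of 10.30, 9.99, 10.17 and 10.23 on the oncogenic Vav1 spleen arrays, against 9.63 and 9.83 on the GFP spleen arrays. In lymph node, Vav1 had 10.17 and 9.27 on the oncogenic Vav1 arrays, against 9.52 and 9.69 on the GFP arrays. The Vav1 groups did not overlap in spleen and overlapped in lymph node, and limma's adjusted p was 0.137 in spleen and 0.8 in lymph node. Whether this probe set reads the introduced form of Vav1 is not given in the sources used here.

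In the spleen, 31 of these 37 genes were higher with oncogenic Vav1 than with GFP and none was lower, at a limma adjusted p under 0.05. Over all genes tested, 17.1% were higher and 9.77% lower by the same rule. With Orc1, Gins1 and Ccne2 the count was 33 of 40. The median change was 1.13 on the log2 scale for the 37 genes (2.19-fold) and 1.30 for the 40, against 0.0019 over all genes tested. The changes ran between -0.27 for Pold1 and 2.38 for Rrm2. In the lymph node, 34 of the 37 genes rose and none fell, where 7.87% of all genes tested were higher and 10.8% lower, and the count with the 3 genes was 37 of 40. The median lymph node change was 1.31 for the 37 genes (2.48-fold) and 1.43 for the 40, against -0.015 over all genes tested. The changes ran between 0.20 for Pold1 and 3.00 for Rrm2. The lymph node calls use a spread shared with the spleen arrays, and far fewer genes passed with lymph node arrays alone. Each array measured the pooled RNA of all cells of a sample, so fewer cells of a type and less RNA per cell cannot be told apart.

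Of the 40 genes, the 33 called in spleen were all among the 37 called in lymph node, and 3 genes passed in neither tissue. The tissues share animals, so these calls are not independent. Those 3 genes were Gins4, Pole2 and Pold1. Over both tissues, in a model that takes tissue into account, 36 of the 37 genes rose (39 of the 40), against 17.4% of all genes tested, and Pold1 alone did not pass the threshold. Among the 37, the change was at least 2-fold for 23 genes in spleen and for 27 in lymph node, and at least 4-fold for 1 and 6 genes. Every oncogenic Vav1 spleen array lay above both GFP spleen arrays for 35 of the 37 genes, the exceptions being Pola1 and Pold1, where 30.3% of all genes tested showed this separation. In lymph node the separation held for 37 of 37 genes, against 24.2% of all genes tested.

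**Figure D1:**
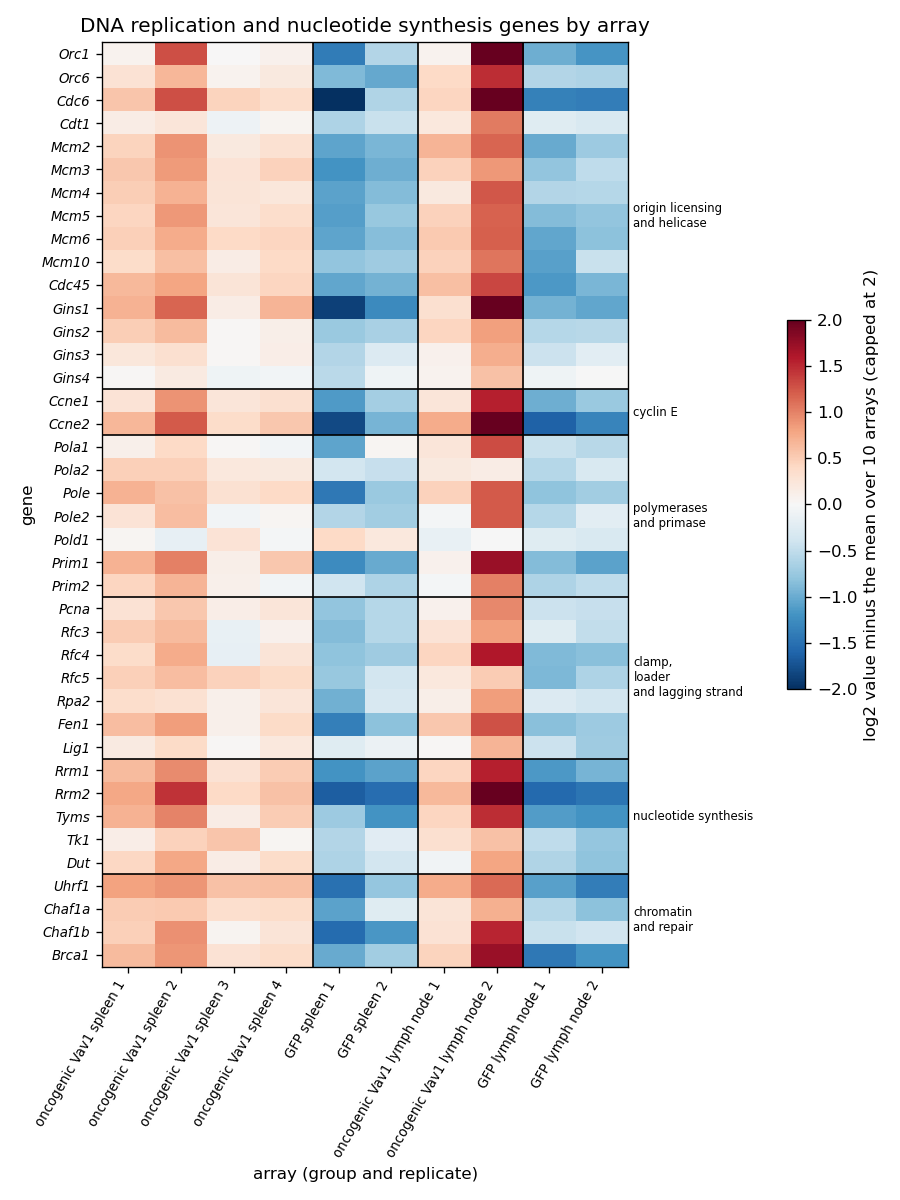
Log2 value of each of the 40 genes (rows, grouped by role) on each array (columns, grouped by construct and tissue), shown as the difference from the gene's mean over the 10 arrays and capped at 2. The oncogenic Vav1 columns are red and the GFP columns blue for nearly every row, and the Pold1 row is the exception in spleen.

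The arrays of a group were not alike. Oncogenic Vav1 lymph node replicate 2 held the highest value of all 10 arrays for 37 of the 40 genes. Oncogenic Vav1 spleen replicate 2 was the highest of its 4 for 36 genes, and GFP spleen replicate 1 was the lowest of all 10 arrays for 26. These arrays came from different animals. The median SD of the 40 genes was 0.258 in oncogenic Vav1 spleen (n = 4) and 0.195 in GFP spleen (n = 2), against 0.148 and 0.125 over all genes tested. It was 0.563 in oncogenic Vav1 lymph node and 0.14 in GFP lymph node (n = 2 each), against 0.233 and 0.0836 over all genes tested. With arrays left out, the counts below include Orc1, Gins1 and Ccne2. Leaving out 1 array of a group of 2 leaves a single array, so that group then adds nothing to the spread. The share of all genes tested that passed in these fits is not given here. Lower counts are therefore not read as particular to these genes. Leaving out GFP spleen replicate 1 brought the spleen count to 13 of 40, with a median change of 1.10. The lymph node count was 21 without GFP lymph node replicate 1, 19 without GFP lymph node replicate 2 and 28 without oncogenic Vav1 lymph node replicate 2. Every lymph node change stayed positive in each of these, and so did 39 of 40 spleen changes. The count over both tissues stayed between 37 and 39 whichever array was left out.

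Promoter sequence is a feature that played no part in the choice of the genes. RefSeq windows of 300 bases, 250 before to 50 after the annotated start, were held for 34 of the 41 genes (39 windows, GRCm38.p6), among 32851 windows in all. E2F-type motifs were searched on both strands as the letters TTTCGCGC, TTTGGCGC, TTTCCCGC and TTTGCCGC and the shorter TTCGCGC and TTGGCGC, which lie within TTTCGCGC and TTTGGCGC. At least 1 of these stood in 17 of the 39 windows (43.6%, 16 genes), against 5.24% of all windows. By motif, TTTCGCGC was in 17.9% of these windows against 0.323% of all, TTTGGCGC in 15.4% against 0.514%, and TTTCCCGC in 15.4% against 1.07%. TTTGCCGC was in none of the 39 windows and in 0.441% of all. TTCGCGC was in 20.5% against 1.59%, and TTGGCGC in 23.1% against 2.45%. CCAAT, the letters of NF-Y sites, was in 56.4% against 37.4%. Of the cell cycle homology letters, TTTGAA was in 10.3% against 17.9% and TTCGAA in 5.13% against 1.56%. The median GC content was 58.3% in these windows and 52.7% in all, and the part of GC content in these shares was not tested.

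Windows are printed for the helicase genes Mcm6, Mcm5 and Mcm3, which each hold more than 1 E2F-type match. Pold1 is shown because it holds a match and passed the threshold in neither tissue, and Rrm2 because it had the largest change in both tissues and holds no match. Capitals mark E2F-type matches, except in Rrm2, where they mark CCAAT. The windows run 5′ to 3′ on the strand of the gene. Mcm6 lies at chr1:128359656-128359955 on the minus strand, Mcm5 at chr8:75109259-75109558 on the plus strand and Mcm3 at chr1:20820263-20820562 on the minus strand. Pold1 lies at chr7:44548766-44549065 on the minus strand and Rrm2 at chr12:24708004-24708303 on the plus strand.
Mcm6: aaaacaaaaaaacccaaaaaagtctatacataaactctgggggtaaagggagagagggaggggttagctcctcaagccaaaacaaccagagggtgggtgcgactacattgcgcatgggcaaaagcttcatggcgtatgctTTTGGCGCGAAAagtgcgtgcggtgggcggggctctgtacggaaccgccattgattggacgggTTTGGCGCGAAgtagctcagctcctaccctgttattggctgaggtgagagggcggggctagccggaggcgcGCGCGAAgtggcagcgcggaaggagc
Mcm5: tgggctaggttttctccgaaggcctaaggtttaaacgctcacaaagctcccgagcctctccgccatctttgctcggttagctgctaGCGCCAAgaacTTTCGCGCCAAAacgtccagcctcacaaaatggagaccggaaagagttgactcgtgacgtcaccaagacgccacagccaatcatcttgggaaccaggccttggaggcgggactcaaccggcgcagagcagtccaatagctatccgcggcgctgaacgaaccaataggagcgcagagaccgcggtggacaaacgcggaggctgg
Mcm3: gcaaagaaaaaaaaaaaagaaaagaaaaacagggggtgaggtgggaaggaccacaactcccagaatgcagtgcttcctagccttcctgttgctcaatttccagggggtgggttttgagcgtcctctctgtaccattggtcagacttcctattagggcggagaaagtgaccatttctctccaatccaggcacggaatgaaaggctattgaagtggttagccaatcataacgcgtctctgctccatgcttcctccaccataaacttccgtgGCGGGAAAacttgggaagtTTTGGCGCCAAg
Pold1: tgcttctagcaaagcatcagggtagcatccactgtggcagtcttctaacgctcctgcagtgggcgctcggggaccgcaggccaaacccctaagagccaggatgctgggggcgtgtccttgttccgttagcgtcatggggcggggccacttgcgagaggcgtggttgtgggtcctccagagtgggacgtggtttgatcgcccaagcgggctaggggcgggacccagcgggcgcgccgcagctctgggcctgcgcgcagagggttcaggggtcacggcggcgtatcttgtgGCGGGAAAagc
Rrm2: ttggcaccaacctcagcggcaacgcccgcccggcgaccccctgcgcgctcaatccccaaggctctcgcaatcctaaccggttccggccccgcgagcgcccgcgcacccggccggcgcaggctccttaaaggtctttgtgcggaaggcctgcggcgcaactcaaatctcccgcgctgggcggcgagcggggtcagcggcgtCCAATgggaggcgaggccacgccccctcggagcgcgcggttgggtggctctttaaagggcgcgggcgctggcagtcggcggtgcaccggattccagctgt
The 15 genes with a match and array values had a median change of 1.35 in spleen and 1.31 in lymph node. They include Orc1, which passed the filter through the oncogenic Vav1 arrays and whose spleen value of 1.35 is that median. No difference from genes without a match is therefore drawn. The 18 genes whose window held no match had medians of 1.19 in spleen and 1.53 in lymph node. A match describes these letters only, and binding was not measured.

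Of the 15 origin licensing and helicase genes, 13 are left without Orc1 and Gins1, and 12 of these rose in each tissue, with median changes of 1.38 in spleen and 1.53 in lymph node. With Orc1 and Gins1 the counts were 13 and 14 of 15. The 15 include Orc1 and Orc6 of the origin recognition complex, the loaders Cdc6 and Cdt1, the helicase subunits Mcm2 to Mcm6, and the activators Mcm10, Cdc45 and Gins1 to Gins4. Mcm6 had log2 values of 10.30, 10.57, 10.23 and 10.25 on the oncogenic Vav1 spleen arrays, against 8.78 and 8.97 on the GFP spleen arrays. In lymph node Mcm6 had 10.36 and 11.03 with oncogenic Vav1, against 8.79 and 9.01 with GFP. The groups stood apart by more than a log2 unit in both tissues, and the GFP values of spleen and lymph node were alike. The Mcm6 change was 1.46 ± 0.18 in spleen (SE, limma adjusted p = 0.000715) and 1.80 ± 0.21 in lymph node (limma adjusted p = 0.000304). The other helicase subunits changed by 1.45 (Mcm2), 1.61 (Mcm3), 1.38 (Mcm4) and 1.40 (Mcm5) in spleen, and all passed the threshold. In lymph node they changed by 1.80 (Mcm2), 1.31 (Mcm3), 1.29 (Mcm4) and 1.65 (Mcm5), and all passed there too.

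Cdc6, which helps to load the helicase, had 7.94, 8.69, 7.84 and 7.74 on the oncogenic Vav1 spleen arrays, against 5.40 and 6.79 on the GFP spleen arrays. In lymph node Cdc6 had 7.83 and 9.65 with oncogenic Vav1, against 6.05 and 6.01 with GFP. The GFP spleen arrays differed by more than a log2 unit, yet the groups did not overlap. The Cdc6 change was 1.96 ± 0.49 in spleen (limma adjusted p = 0.0157) and 2.71 ± 0.57 in lymph node (limma adjusted p = 0.00821). Cdt1, the partner of Cdc6 in loading, rose by 0.61 in spleen and 0.89 in lymph node.

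Gins1, a GINS subunit, had 7.33, 7.80, 6.77 and 7.31 on the oncogenic Vav1 spleen arrays, against 4.77 and 5.36 on the GFP spleen arrays. In lymph node Gins1 had 6.95 and 8.76 with oncogenic Vav1, against 5.68 and 5.60 with GFP. Gins1 passed the filter through the oncogenic Vav1 arrays, so the separation of its arrays supports nothing here. With the GFP values near background the size of the difference is uncertain. Gins2 rose by 1.02 in spleen and 1.18 in lymph node, and Gins3 by 0.61 and 0.73. Gins4 had 8.94, 9.08, 8.82 and 8.85 on the oncogenic Vav1 spleen arrays, against 8.37 and 8.81 on the GFP spleen arrays. In lymph node Gins4 had 8.97 and 9.49 with oncogenic Vav1, against 8.82 and 8.90 with GFP. The groups lay close together without overlap, and neither change passed the threshold, at 0.33 ± 0.17 in spleen (limma adjusted p = 0.175) and 0.37 ± 0.20 in lymph node (limma adjusted p = 0.233). The spleen change of Gins4 was 0.11 without GFP spleen replicate 1 and 0.55 without GFP spleen replicate 2. Its lymph node change was 0.11 without oncogenic Vav1 lymph node replicate 2 and 0.63 without replicate 1 of that group, where each fit leaves a single array in the group.

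Orc1, the largest subunit of the origin recognition complex, had 6.46, 7.67, 6.39 and 6.47 on the oncogenic Vav1 spleen arrays, against 4.99 and 5.80 on the GFP spleen arrays. The lymph node values of Orc1 were 6.46 and 8.99 with oncogenic Vav1, against 5.41 and 5.20 with GFP. In spleen a single oncogenic Vav1 array lay far above the rest of its group, and the oncogenic Vav1 lymph node arrays lay far from each other. The GFP values of Orc1 were near background in both tissues, so the size of the difference is uncertain. Its spleen difference did not pass the threshold (limma adjusted p = 0.113), and no call is drawn from lymph node. Orc6 rose by 1.25 in spleen and 1.54 in lymph node. Cdc45, which joins the helicase when it is switched on, rose by 1.52 in spleen and 2.00 in lymph node, and Mcm10, which helps in that step, by 1.13 and 1.53.

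With Orc1 and Gins1 counted, when GFP spleen replicate 1 was left out, 5 of the 13 licensing and helicase genes called in spleen were still called, namely Cdc45, Mcm2, Mcm3, Mcm5 and Mcm6, and the limma adjusted p of the 13 reached 0.263. Of the 14 called in lymph node, 8 were still called without GFP lymph node replicate 1, 7 without GFP lymph node replicate 2 and 11 without oncogenic Vav1 lymph node replicate 2. The 8 and the 7 both hold Cdc45, Gins2, Mcm10, Mcm2, Mcm3, Mcm5 and Mcm6. Leaving out any other array kept at least 10 of the 13 in spleen and at least 12 of the 14 in lymph node. Without oncogenic Vav1 lymph node replicate 2 the lymph node changes were 1.80 for Cdc6, 0.48 for Cdt1, 0.41 for Gins3, 0.78 for Mcm4 and 1.00 for Orc6. The spleen change of Cdc6 was 1.27 without GFP spleen replicate 1.

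**Figure D2:**
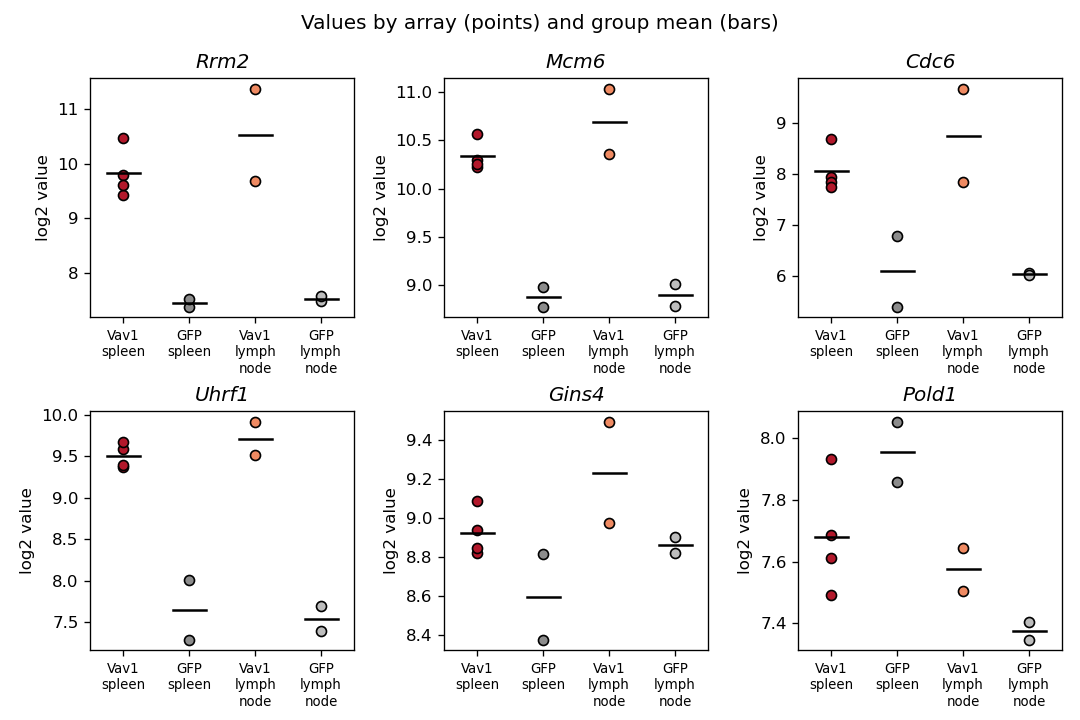
Log2 values of 6 genes (panels) on each array (points) with the group mean (bars), by construct and tissue, where Vav1 stands for oncogenic Vav1. Rrm2, Mcm6, Cdc6 and Uhrf1 separate the constructs in both tissues, Gins4 separates them narrowly, and the spleen values of Pold1 overlap.

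Cyclin E, which with the kinase Cdk2 drives the entry into S phase, is encoded by Ccne1 and Ccne2. Ccne1 rose in both tissues, by 1.34 ± 0.32 in spleen and 1.76 ± 0.37 in lymph node. Ccne2 had 7.60, 8.15, 7.30 and 7.47 on the oncogenic Vav1 spleen arrays, against 5.13 and 5.99 on the GFP spleen arrays. In lymph node Ccne2 had 7.68 and 9.07 with oncogenic Vav1, against 5.32 and 5.61 with GFP. Its GFP group means were near background in both tissues, and it passed the filter through the oncogenic Vav1 arrays. The size of the Ccne2 difference is therefore uncertain, no call is drawn from it, and the separation of its arrays supports nothing here. Ccne1 was not called in spleen without GFP spleen replicate 1 (limma adjusted p = 0.135). It was not called in lymph node without GFP lymph node replicate 1 (limma adjusted p = 0.0779), and its lymph node change was 1.10 without oncogenic Vav1 lymph node replicate 2.

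Among the 7 polymerase and primase genes, 3 rose in spleen and 5 in lymph node, with median changes of 0.81 and 1.05. In spleen those that rose were Pole, the catalytic subunit of polymerase epsilon (1.57 ± 0.24), Prim1, the catalytic primase subunit (1.72 ± 0.37), and Pola2, the accessory subunit of polymerase alpha (0.76 ± 0.13). In lymph node the same 3 rose, by 1.60 (Pole), 1.87 (Prim1) and 0.61 (Pola2), together with Pola1 (1.28) and Prim2 (1.05). Pola1, the catalytic subunit of polymerase alpha, did not pass in spleen (0.63 ± 0.32, limma adjusted p = 0.168), where GFP spleen replicate 2 at 7.78 overlapped the oncogenic Vav1 arrays at 7.70 to 8.14. Prim2, the large primase subunit, did not pass in spleen (0.81 ± 0.27, limma adjusted p = 0.0507). Pole2, the second subunit of polymerase epsilon, passed in neither tissue, with 0.86 in spleen (limma adjusted p = 0.0605) and 0.98 in lymph node (limma adjusted p = 0.0825). The lymph node change of Pole2 was 0.35 without oncogenic Vav1 lymph node replicate 2 and 1.61 without replicate 1 of that group, where each fit leaves a single array in the group. The spleen change of Pola1 was 0.079 without GFP spleen replicate 1 and 1.18 without GFP spleen replicate 2, not called in either. Pola1, Prim2 and Pole2 were called in spleen, with the same changes, when either oncogenic Vav1 lymph node array was left out (limma adjusted p up to 0.0442), and Prim2 also without oncogenic Vav1 spleen replicate 4.

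Pold1, the catalytic subunit of polymerase delta, had 7.68, 7.49, 7.93 and 7.61 on the oncogenic Vav1 spleen arrays, against 8.05 and 7.86 on the GFP spleen arrays. In lymph node Pold1 had 7.51 and 7.64 with oncogenic Vav1, against 7.41 and 7.35 with GFP. The spleen groups overlapped, with 3 of the 4 oncogenic Vav1 arrays below both GFP arrays, and the lymph node groups stood narrowly apart with oncogenic Vav1 above. The change was -0.27 ± 0.14 in spleen (limma adjusted p = 0.173), 0.20 ± 0.16 in lymph node (limma adjusted p = 0.463) and -0.06 ± 0.11 over both tissues (limma adjusted p = 0.689). The Pold1 change was -0.18 in spleen without GFP spleen replicate 1 and 0.13 in lymph node without oncogenic Vav1 lymph node replicate 2, not called in either. Pold1 was the single gene of the 40 whose highest group mean was that of GFP spleen. The sign over both tissues turned to 0.037 without GFP spleen replicate 1 and to 0.0041 without oncogenic Vav1 spleen replicate 2, without a call in either. Without both arrays of ONCO3, Pold1 fell in spleen (-0.36, limma adjusted p = 0.0341).

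Without GFP spleen replicate 1, Prim1 was no longer called in spleen (limma adjusted p = 0.0888). Of the 5 polymerase and primase genes called in lymph node, Pole alone was still called without GFP lymph node replicate 1, and Pole and Pola2 without GFP lymph node replicate 2. Pola2, Pole and Prim1 were still called without oncogenic Vav1 lymph node replicate 2, and the same 3 without oncogenic Vav1 spleen replicate 1, 3 or 4. Prim2 was not called in lymph node without either GFP spleen array. Leaving out oncogenic Vav1 lymph node replicate 2 gave lymph node changes of 0.75 for Pola1, 1.05 for Prim1 and 0.53 for Prim2.

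**Figure D3:**
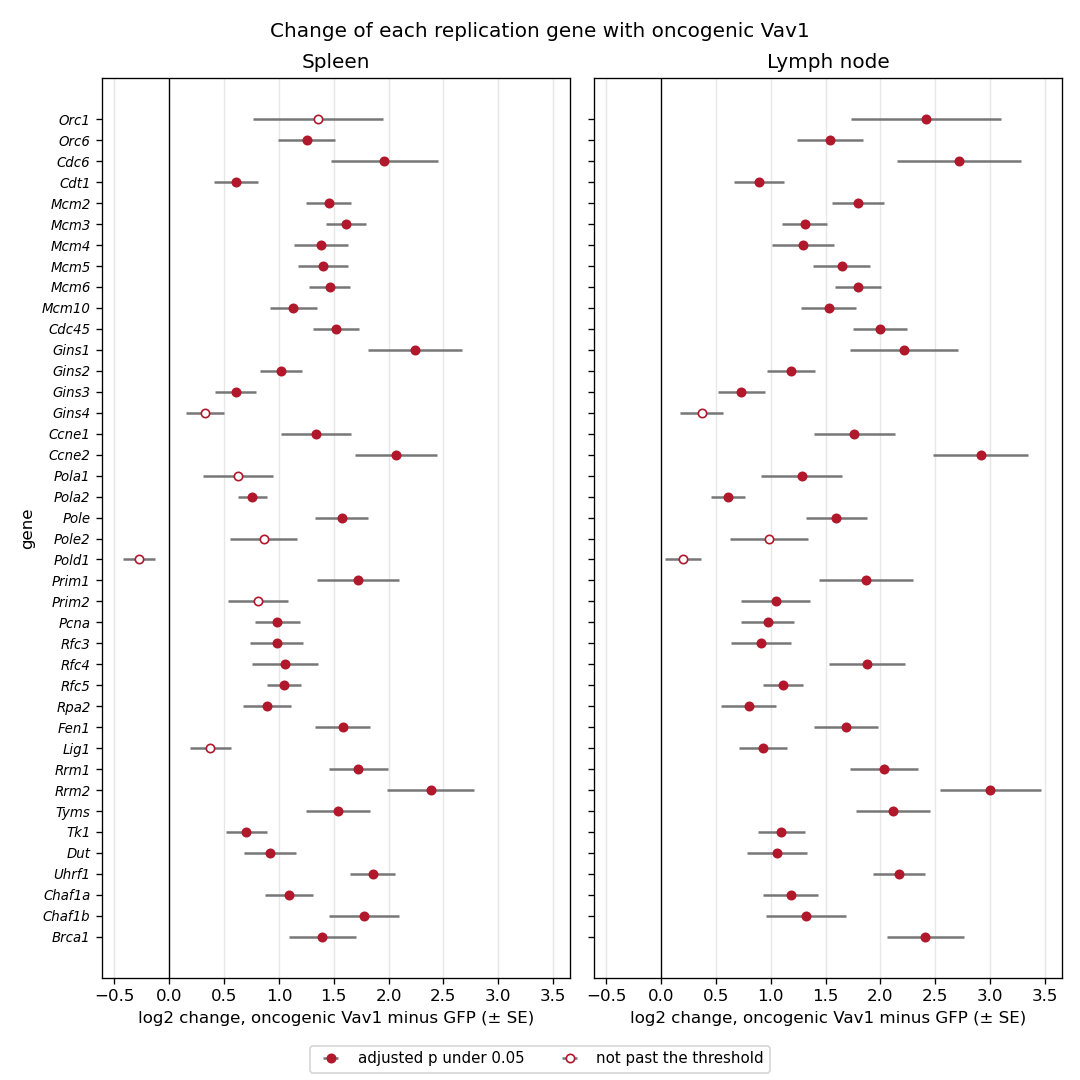
Log2 change of each of the 40 genes, oncogenic Vav1 minus GFP, in spleen (left) and lymph node (right), as points with their standard error, filled where limma's adjusted p was under 0.05. In spleen 33 points are filled and in lymph node 37, and Pold1 in spleen is the single change below 0.

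Among the 7 genes of the sliding clamp, its loader and the lagging strand, 6 rose in spleen and 7 in lymph node, with median changes of 0.99 and 0.97. Pcna, the clamp itself, had 11.75, 12.02, 11.61 and 11.72 on the oncogenic Vav1 spleen arrays, against 10.68 and 10.90 on the GFP spleen arrays. In lymph node Pcna had 11.56 and 12.43 with oncogenic Vav1, against 11.04 and 11.01 with GFP. The constructs were apart in both tissues, and the lymph node arrays with oncogenic Vav1 differed more from each other than the nearer of them did from GFP. The Pcna change was 0.99 ± 0.21 in spleen (limma adjusted p = 0.00717) and 0.97 ± 0.24 in lymph node (limma adjusted p = 0.0184). The clamp loader genes Rfc3, Rfc4 and Rfc5 rose by 0.98, 1.05 and 1.05 in spleen and by 0.91, 1.88 and 1.11 in lymph node.

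Fen1, the nuclease that trims Okazaki fragments, had the largest spleen change of these 7 genes, 1.58 ± 0.25 (limma adjusted p = 0.00196), and changed by 1.68 ± 0.29 in lymph node (limma adjusted p = 0.00273). Rpa2, a subunit of the single-strand binding protein, rose by 0.89 in spleen and 0.80 in lymph node. Lig1, which seals the fragments, had 7.67, 7.86, 7.51 and 7.69 on the oncogenic Vav1 spleen arrays, against 7.24 and 7.37 on the GFP spleen arrays. The spleen groups of Lig1 were apart by a small step, and its change of 0.38 ± 0.19 did not pass (limma adjusted p = 0.156), though it did without either oncogenic Vav1 lymph node array (limma adjusted p up to 0.0433). In lymph node Lig1 rose by 0.93 ± 0.21 (limma adjusted p = 0.0135).

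Rfc5 and Fen1 were the clamp, loader and lagging strand genes still called in spleen without GFP spleen replicate 1, where the limma adjusted p of the others reached 0.172 and the change of Rpa2 was 0.57. In lymph node 4 of the 7 were still called without GFP lymph node replicate 1 and 3 without GFP lymph node replicate 2, Fen1, Rfc4 and Rfc5 in both. Without oncogenic Vav1 lymph node replicate 2 there were 5, with changes of 0.54 for Pcna, 0.44 for Rpa2 and 0.60 for Lig1. Rfc4 was not called in spleen without GFP spleen replicate 2 or oncogenic Vav1 spleen replicate 1, 2 or 4 (limma adjusted p up to 0.109). Whichever of the 6 spleen arrays was left out, Rfc3, Rpa2 or both lost their lymph node call, since spleen arrays share the estimate of the spread (limma adjusted p up to 0.0768).

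All 5 nucleotide synthesis genes rose in both tissues, with median changes of 1.54 in spleen and 2.03 in lymph node. Rrm2, the small subunit of ribonucleotide reductase that is made in S phase, had 9.80, 10.47, 9.42 and 9.61 on the oncogenic Vav1 spleen arrays, against 7.38 and 7.51 on the GFP spleen arrays. In lymph node Rrm2 had 9.68 and 11.37 with oncogenic Vav1, against 7.48 and 7.57 with GFP. The 4 GFP arrays lay close together, and every oncogenic Vav1 array was far above them. Its change of 2.38 ± 0.40 in spleen (5.22-fold, limma adjusted p = 0.00251) and 3.00 ± 0.46 in lymph node (8.00-fold, limma adjusted p = 0.00146) was the largest of the 40 genes in each tissue. Rrm1, the large subunit of the same enzyme, changed by 1.72 ± 0.27 in spleen and 2.03 ± 0.31 in lymph node.

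Tyms, the thymidylate synthase, rose by 1.54 in spleen and 2.11 in lymph node. Tk1, the cytosolic thymidine kinase, rose by 0.70 and 1.09, and Dut, which removes dUTP, by 0.92 and 1.06. Rrm1, Rrm2 and Tyms were still called in spleen without GFP spleen replicate 1, while Dut and Tk1 were not (limma adjusted p up to 0.185). Tyms and Dut were not called in spleen without GFP spleen replicate 2 (limma adjusted p up to 0.0585), nor was Tk1 without oncogenic Vav1 spleen replicate 2 (limma adjusted p = 0.0527). In lymph node Dut was not called without either GFP lymph node array, or without oncogenic Vav1 lymph node replicate 2, where its change was 0.63. Tk1 was not called in lymph node without GFP lymph node replicate 2 (limma adjusted p up to 0.148 for Dut and Tk1).

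Uhrf1, Chaf1a, Chaf1b and Brca1, which act on chromatin and repair behind the fork, rose in both tissues, with median changes of 1.59 and 1.75. Uhrf1, which carries DNA methylation over to the new strand, had 9.58, 9.67, 9.37 and 9.39 on the oncogenic Vav1 spleen arrays, against 7.29 and 8.01 on the GFP spleen arrays. In lymph node Uhrf1 had 9.52 and 9.91 with oncogenic Vav1, against 7.69 and 7.40 with GFP. The oncogenic Vav1 values of Uhrf1 were close together in both tissues and clear of the GFP values. The change was 1.85 ± 0.20 in spleen (limma adjusted p = 0.000399) and 2.17 ± 0.23 in lymph node (limma adjusted p = 0.000183), and its adjusted p was the smallest of the 40 genes in each tissue. Chaf1a and Chaf1b, subunits of the assembly factor that places histones on new DNA, rose by 1.09 and 1.78 in spleen and by 1.18 and 1.32 in lymph node.

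Brca1, which acts in recombination repair and protects stalled forks, had 7.91, 8.16, 7.57 and 7.64 on the oncogenic Vav1 spleen arrays, against 6.27 and 6.58 on the GFP spleen arrays. In lymph node Brca1 had 7.73 and 9.01 with oncogenic Vav1, against 5.85 and 6.08 with GFP. Its groups were apart in both tissues, and its change was 1.40 ± 0.30 in spleen (limma adjusted p = 0.0083) and 2.41 ± 0.35 in lymph node (limma adjusted p = 0.00108). Of the 4 chromatin and repair genes, Uhrf1 alone was still called in spleen without GFP spleen replicate 1 (limma adjusted p up to 0.0953), where the change of Chaf1a was 0.68. In lymph node Chaf1b was not called without GFP lymph node replicate 1 or 2 or oncogenic Vav1 lymph node replicate 2, where its change was 0.71, and Chaf1a was not called without GFP lymph node replicate 2 (limma adjusted p up to 0.15).

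The response to the construct was then compared between tissues. The interaction, the lymph node change minus the spleen change, passed limma's threshold for 0 of 40 genes, against 8.04% of all genes tested in either direction. A single gene, Brca1, had an unadjusted p under 0.05, with an interaction of 1.03 ± 0.46 (limma adjusted p = 0.198). The interaction was positive for 32 of the 40 genes, with a median of 0.27. This rested on which oncogenic Vav1 lymph node array was kept. Without replicate 1 of that group the median interaction was 0.65, and without replicate 2 it was -0.24. Either choice leaves a single array in the group, so nothing is drawn from calls in these fits.

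Within oncogenic Vav1 mice, 0 of 40 genes differed between lymph node and spleen, against 0.0373% of all genes tested. The unadjusted p was under 0.05 for 4 of them, Cdt1, Mcm2, Orc6 and Rfc4, and the median difference was 0.36. The count depended on which oncogenic Vav1 lymph node array was left out, and either choice leaves a single array in that group. Within GFP mice, 1 of 40 genes differed, where 16% of all genes tested did. That gene was Pold1, lower in GFP lymph node than in GFP spleen (-0.57 ± 0.17, limma adjusted p = 0.0462). It was not called without either GFP spleen array, either GFP lymph node array or oncogenic Vav1 spleen replicate 1, 3 or 4. The group means ran in the order oncogenic Vav1 lymph node, oncogenic Vav1 spleen, GFP lymph node and GFP spleen for 23 genes, and with the GFP groups in the other order for 13.

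The other genes of the same pathways were followed through lists. Rises are read against the 17.1% of all genes tested that were higher in spleen and the 7.87% in lymph node. Of 15 other origin licensing and firing genes tested, 7 rose in spleen and 9 in lymph node and none fell, with median changes of 0.52 and 0.88. Gmnn and Recql4, which passed the filter through the oncogenic Vav1 arrays, are 2 of each count, and 5 and 7 of the other 13 rose. Ticrr, which brings Cdc45 to origins, changed by 1.29 in spleen and 2.11 in lymph node, and Topbp1, its partner, by 0.52 and 1.07. Of 21 other polymerase, clamp loader and fork genes, 8 rose in spleen and 9 in lymph node and none fell, with medians of 0.43 and 0.67. Without Atad5 and Dscc1, which passed the filter in the same way, 8 of 19 rose in each tissue. Top2a, the topoisomerase that untangles copied DNA, changed by 1.89 and 2.37, and Timeless, a fork protection protein, by 1.29 and 1.42. Of 10 replication-coupled chromatin genes, 9 rose in each tissue, among them the histone chaperone gene Asf1b (1.66 and 1.86) and Dtl (1.79 and 2.53), which marks Cdt1 for destruction. Of 10 Brca1 partner and fork repair genes, 7 rose in spleen and 10 in lymph node, with Rad54l at 0.84 and 1.09.

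Nucleotide metabolism outside the 5 genes was followed as well. Of 11 other dNTP and thymidylate genes, 4 rose and 2 fell in spleen, and 3 rose and 1 fell in lymph node. The share that fell in lymph node is near the 10.8% of all genes tested that were lower there, and in spleen 9.77% were lower. Of all genes tested, 17.1% were higher in spleen and 7.87% in lymph node. The risers in spleen included Dctd, the deoxycytidylate deaminase (1.13), and Nme1, a nucleoside diphosphate kinase (0.70). Rrm2b, the form of the small reductase subunit that is induced by p53, had 7.91, 7.81, 7.88 and 7.63 on the oncogenic Vav1 spleen arrays, against 8.19 and 8.60 on the GFP spleen arrays. The groups of Rrm2b did not overlap, and it fell in spleen (-0.59 ± 0.17, limma adjusted p = 0.0269) and in lymph node (-0.69 ± 0.19, limma adjusted p = 0.032). Tk2, the mitochondrial thymidine kinase, fell in spleen (-0.53 ± 0.16, limma adjusted p = 0.0353) and did not pass in lymph node (-0.18 ± 0.19, limma adjusted p = 0.567).

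Of 19 purine and pyrimidine synthesis genes, 8 rose and 1 fell in spleen, and 5 rose and 1 fell in lymph node. The share that fell was below that of all genes tested (9.77% in spleen and 10.8% in lymph node). The share of all genes tested that rose was 17.1% in spleen and 7.87% in lymph node. Of the CTP synthase genes, Ctps rose by 0.82 in spleen and 0.96 in lymph node while Ctps2 changed by -0.50 and -0.94 and fell in both. Shmt2, the mitochondrial serine hydroxymethyltransferase, rose by 0.91 and 1.16.

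Regulators of the same phase of the cell cycle were also called, where 17.1% of all genes tested were higher in spleen and 7.87% in lymph node. Of 13 E2F and pocket protein genes, 7 rose in each tissue, none fell in spleen and 2 fell in lymph node, where 10.8% of all genes tested were lower. E2f1, an activating E2F, changed by 1.17 in spleen and 1.29 in lymph node, its dimer partner Tfdp1 by 1.33 and 1.44, and the repressing E2f8 by 2.10 and 3.31. E2f5 and the pocket protein gene Rbl2, which act in resting cells, fell in lymph node by 0.60 and 0.54. In spleen neither passed, at 0.0067 for E2f5 and -0.0052 for Rbl2. Of 9 S phase kinase and checkpoint genes, 7 rose in spleen and 6 in lymph node, among them Ccna2, the S phase cyclin (2.26 and 2.80), and Skp2 (1.13 and 1.99). The spleen count includes Cdkn1a, which encodes a Cdk inhibitor (1.26 ± 0.37, limma adjusted p = 0.031). Cdkn1a did not pass in lymph node (-1.34 ± 0.43, limma adjusted p = 0.055), and its interaction was called (-2.63 ± 0.60, limma adjusted p = 0.0234). Within GFP mice Cdkn1a was higher in lymph node than in spleen (2.12 ± 0.45, limma adjusted p = 0.00946). The interaction of Skp2 was also called, in the other direction (0.85 ± 0.20, limma adjusted p = 0.0257). All 11 mitosis genes set beside these lists rose in both tissues, with median changes of 2.31 and 2.39. Cdk1 among the mitosis genes passed the filter through the oncogenic Vav1 arrays. The mitosis medians were larger than the medians of the 40 genes, a difference that was not tested.

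**Figure D4:**
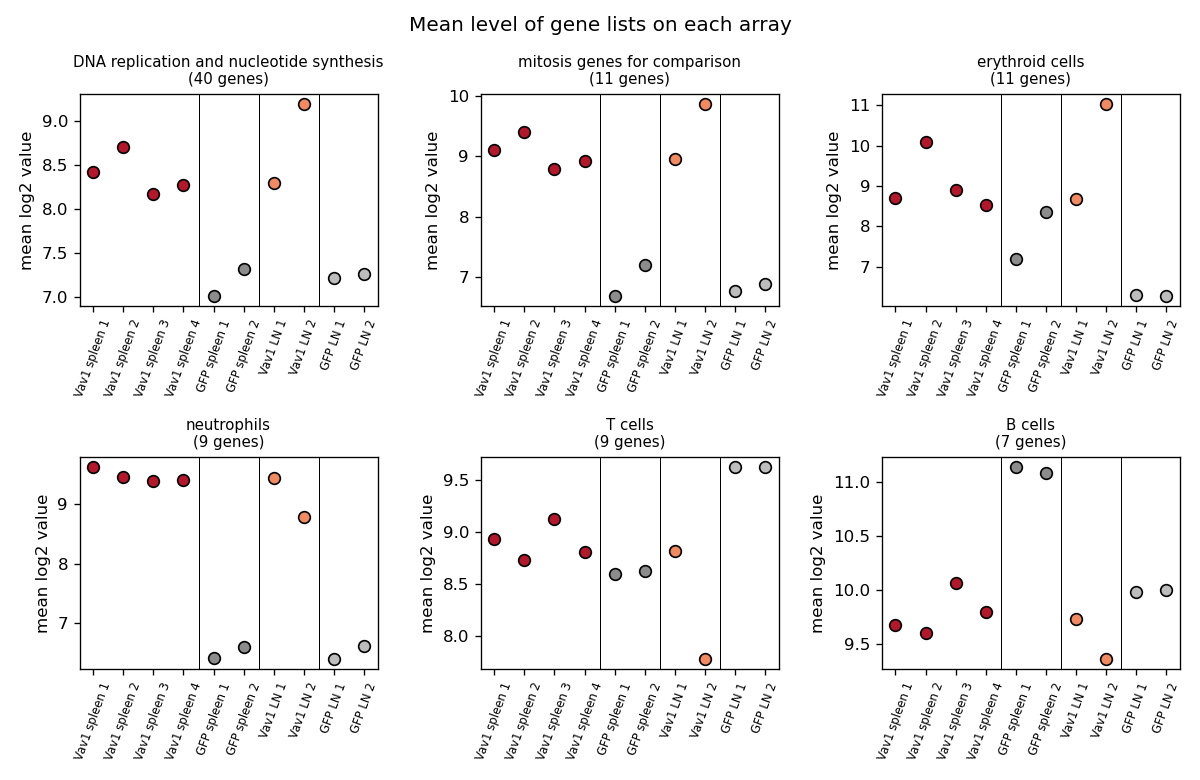
Mean log2 value of the 40 replication genes, of 11 mitosis genes and of 4 marker lists (panels) on each array (points), where Vav1 stands for oncogenic Vav1 and LN for lymph node. The replication genes, the mitosis genes and the erythroid markers are all highest on oncogenic Vav1 lymph node replicate 2, while the neutrophil markers split the constructs without that peak.

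Markers of several cell types differed between the constructs as well. For every marker list, rises are read against the 17.1% of all genes tested that were higher in spleen and the 7.87% in lymph node. The 40 genes had mean log2 values of 8.17 to 8.71 on oncogenic Vav1 spleen arrays, against 7.01 and 7.33 on GFP spleen arrays. In lymph node their means were 8.30 and 9.20 with oncogenic Vav1, against 7.22 and 7.27 with GFP. The means of 11 erythroid markers were 8.54 to 10.08 in oncogenic Vav1 spleen, against 7.20 and 8.35 in GFP spleen. In lymph node they were 8.67 and 11.04 with oncogenic Vav1, against 6.29 and 6.26 with GFP, with 3 of the 11 near background in GFP lymph node. None of the 11 erythroid markers was called in spleen and all 11 rose in lymph node, among them Rhag, which passed the filter through the oncogenic Vav1 arrays. Oncogenic Vav1 lymph node replicate 2, oncogenic Vav1 spleen replicate 2 and GFP spleen replicate 1 had the highest, highest and lowest erythroid means of their groups. Within GFP mice, erythroid markers had a median of -1.32 in lymph node relative to spleen (3 of 11 fell), while the 40 genes had a median of 0.05.

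Neutrophil markers, 8 of 9 called higher in each tissue, had means of 9.40 to 9.63 in oncogenic Vav1 spleen, against 6.42 and 6.59 in GFP spleen. In lymph node their means were 9.45 and 8.78 with oncogenic Vav1, against 6.39 and 6.62 with GFP. These 9 include Mpo and Elane, granule enzymes of early neutrophil stages, and 2 of the 9 markers were near background in each GFP group. Without Mpo and Camp, which passed the filter through the oncogenic Vav1 arrays, 6 of 7 were called higher in each tissue. Falling markers are read against the 9.77% of all genes tested that were lower in spleen and the 10.8% in lymph node. B cell markers fell in spleen (7 of 7), with means of 9.60 to 10.06 with oncogenic Vav1, against 11.14 and 11.08 with GFP. In lymph node 2 of 7 B cell markers fell, with means of 9.73 and 9.35 with oncogenic Vav1, against 9.98 and 10.00 with GFP. T cell markers fell in lymph node (6 of 9), with means of 8.81 and 7.77 with oncogenic Vav1, against 9.63 and 9.63 with GFP, and in spleen 1 rose and 1 fell. Fat and stroma markers fell in lymph node (8 of 8), with means of 7.26 and 7.09 with oncogenic Vav1, against 9.94 and 9.99 with GFP.

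Germinal centre B cells divide fast, and their markers rose for 3 of 4 tested in spleen and 1 of 4 in lymph node, in both with Mybl1, which passed the filter through the oncogenic Vav1 arrays. Their means were 6.54 to 6.67 in oncogenic Vav1 spleen, against 5.70 and 5.71 in GFP spleen, and Rgs13 was near background in all 4 groups. In lymph node their means were 6.63 and 6.35 with oncogenic Vav1, against 6.10 and 6.03 with GFP. Macrophage and monocyte markers rose for 7 of 9 in spleen, with means of 10.34 to 10.55 with oncogenic Vav1, against 8.70 and 8.78 with GFP. In lymph node 2 of the 9 rose, and Fcgr4, which passed the filter through the oncogenic Vav1 arrays, is 1 of each count. The lymph node means were 10.50 and 9.55 with oncogenic Vav1, against 9.38 and 9.47 with GFP. Of the plasma cell markers, 3 of 5 rose in each tissue and 1 fell in spleen. Megakaryocyte markers were called for 0 of 6 in spleen and rose for 3 of 6 in lymph node, with means there of 7.67 and 8.53 with oncogenic Vav1, against 6.58 and 6.56 with GFP. Of 6 haematopoietic progenitor markers, none was called in spleen, and 1 rose and 2 fell in lymph node. The part of these cell types in the level of the replication genes was not tested.

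The negative control probe sets had array medians of 5.43 to 5.55 in oncogenic Vav1 spleen, against 5.87 and 5.69 in GFP spleen. In lymph node their medians were 5.27 and 5.57 with oncogenic Vav1, against 5.46 and 5.38 with GFP. With this median as a covariate, the spleen count of replication genes was 21 of 40 and the lymph node count 38. Every oncogenic Vav1 spleen median lay below both GFP spleen medians, so in spleen this covariate and the construct cannot be fully told apart.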

How the data were processed

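Total RNA of spleen and lymph node was measured on 10 single-colour Affymetrix arrays. The deposited values are log2 values that the authors made with RMA, which corrects background, normalizes by quantiles and summarizes probes, in R 3.6.3. This is stated per the submitters' processing notes. They ran between 2.42 and 13.9 and were used as deposited. The number of arrays limits the precision. The genome build, the annotation version and any filter by the authors are not given in the sources used here.

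Of 29129 probe sets, 19572 had a single symbol. Genes entered the test where at least 2 arrays put them over the array's own 40th percentile (5.64 to 5.84), and 6112 genes did not. Near background means that a group's mean was under that percentile of every array in the group. The tools were limma 3.58.1, with eBayes set to use a trend of the variance, and statmod 1.5.0, run in R 4.3.3. Changes are log2 differences, oncogenic Vav1 minus GFP, with their standard error (SE). The threshold was a two-sided Benjamini-Hochberg adjusted p under 0.05 over all genes tested. Spleen and lymph node were compared in a model with 4 group terms and 1 shared spread (6 residual degrees of freedom). For both tissues together, tissue and construct were added as terms (7 residual degrees of freedom) and arrays of an animal were blocked at random (correlation -0.35). The interaction and the tissue differences within a construct used the 4 group terms with the same kind of block (correlation -0.11).

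The 40 genes, the 121 of 131 listed other pathway and mitosis genes with a probe set and the 76 of 84 listed markers were chosen with earlier results of these data known. Any of the 40 could be named, and of the other lists the up to 4 genes with the smallest p in spleen and any that passed against the direction of their list. Lists are described by counts and medians. Rrm2b values by array, Mpo, Elane, Cdkn1a and the listed genes that fewer than 2 GFP arrays put over that percentile were chosen after their values were seen. Promoter windows and coordinates are those of RefSeq for GRCm38.p6. The fits were tested on simulated data. As alternatives, other filters, normalizations, variance models and probe set summaries were tried, as were array weights, a 1.5-fold minimum, blocks, a control covariate and leaving out arrays.

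Titles number the replicates, and these numbers do not pair arrays. Across constructs, arrays that share a number come from animals with different names, and their deviations from the group means correlated at 0.0406 and 0.3 in spleen and -0.0629 in lymph node. Nothing says whether animals were treated in separate experiments, so p-values measure the spread between these samples only.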

Additional observations from a re-analysis of the deposited data

Results flagged for a closer look

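In the 4 oncogenic Vav1 spleen arrays, a single array stood apart from the others for 2 of the 40 genes, by Dixon's 95% criterion. For Ccne1, oncogenic Vav1 spleen replicate 2 had a log2 value of 9.45, and the other 3 arrays lay between 8.80 and 8.87. For Orc1 the same array had 7.67, and the other 3 lay between 6.39 and 6.47. Chance gives such a gap in about 1 in 20 groups, and the genes found were 2 of 40. In the lymph node, groups of 2 arrays cannot be examined in this way.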

How the results depend on the processing

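With 2 arrays in 3 of the groups, the counts depend on single arrays and on the shared estimate of the spread. The count of the 40 genes called in spleen was 33, and 21 with the control probe median as a covariate. Leaving out an array gave 13 to 38, and leaving out both arrays of ONCO3 gave 40, of which 39 were higher and 1, Pold1, lower. With lymph node arrays alone, fewer arrays estimate the spread, and they include the oncogenic Vav1 group with the largest median SD of the 40 genes (0.563). The lymph node count was 37, and 4 with lymph node arrays alone, where the median change was again 1.43. It was 28 with array weights and 30 without ONCO3. Leaving out an array gave 19 to 39 in lymph node and 37 to 39 over both tissues. Without Orc1, Gins1 and Ccne2, an alternative chosen after seeing the data, the spleen count was 31 of 37, the lymph node count 34 and that over both tissues 36. The other alternatives kept these 3 counts within 1.5 times. The interaction count was 0, with 5 genes lower without both arrays of ONCO3 and 0 to 16 when an array was left out. The count between tissues in oncogenic Vav1 mice was 0, and 0 to 30 when an array was left out. In GFP mice it was 1 (Pold1, lower in lymph node), and 0 with no filter, with centring on the median and with a fold threshold of 1.5. It was 2 with array weights, with Chaf1b higher and Pold1 lower. It was 1, with Chaf1b higher, with the control covariate. Without both arrays of ONCO3 it was 6, with 4 higher and 2 lower, and leaving out an array gave 0 to 2. Where a setting leaves a single array in a group, that group adds nothing to the spread. The shares of all genes tested that passed under these settings are not given here. Shifts in the counts are therefore not read as particular to the 40 genes. The causes of these shifts were not tested. Centring on the median moved the median spleen change of all genes tested to 0.11, and that of the 40 genes to 1.40.

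Pold1 turned sign under the control covariate, to 0.011 in spleen and 0.164 over both tissues. Over both tissues it also turned to 0.0365 without GFP spleen replicate 1 and to 0.0041 without oncogenic Vav1 spleen replicate 2, within a range of -0.165 to 0.0365 over the arrays left out, and it was not called in any case where the sign turned. With the replicate number as a block, the counts were 34 in spleen, 36 in lymph node, 39 over both tissues, 0 for the interaction, 0 between tissues in oncogenic Vav1 mice and 1 in GFP mice. Past the threshold in every setting were 10 genes in spleen (Cdc45, Fen1, Mcm2, Mcm3, Mcm5, Mcm6, Pole, Rrm1, Rrm2 and Uhrf1), 4 in lymph node (Cdc45, Mcm2, Mcm6 and Uhrf1) and 37 over both tissues. The 37 over both tissues include Orc1, Gins1 and Ccne2, whose differences support nothing here. The planned protein comparison was not run.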
